A study of Mus musculus with 24 samples.

Results

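Mouse embryonic stem cells deleted for Eed and given back an EED form labelled N-KR (KO+N-KR) were compared with cells deleted for Eed alone (KO), both in the state labelled 3i. The comparison was made over all genes and used 4 of 24 libraries, chosen by their titles: 2 of KO+N-KR and 2 of KO. Both groups are C57BL/6 embryonic stem cells of a conditional Eed line, treated with 800 nM 4-hydroxytamoxifen, which induces the deletion. They therefore share the deletion and the drug, and differ by the added EED and by the history of each line, which cannot be told apart. Neither N-KR nor 3i is spelled out in the labels, and the genotype field of the rescued cells names only the knockout. Each genotype is 1 line. The cells grew on fibroblast feeders in medium with serum and LIF, per the labels' protocols. The protocol text also mentions a proteasome inhibitor, which no title or treatment field ties to these libraries. At 3i the study also holds KO cells with wild-type EED (KO+WT, with tamoxifen) and the undeleted line (f/f, without tamoxifen), whose levels are given beside the comparison. All 4 genotypes were also sampled as embryoid bodies, aggregates in which stem cells begin to differentiate, at day 1 and day 2.

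The EED protein belongs to the core of Polycomb repressive complex 2 (PRC2). It binds trimethylated lysine 27 of histone H3 and, with EZH2 and SUZ12, is needed for PRC2 to place that mark on the promoters of silent developmental genes. The series title names SKP1A, a subunit of SCF ubiquitin ligases, in the degradation of PRC2. SCF ligases attach ubiquitin to lysines of their targets and so send them to the proteasome. In embryonic stem cells PRC2 is dispensable for self-renewal, and cells without it express some lineage genes and differentiate abnormally.

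Reads were counted per gene. The 2 libraries of KO+N-KR held 12006492 and 8552602 counts and those of KO held 13163681 and 9599425, within the range of 7553683 to 14426034 over all 24. Within each of the 12 groups the 2 libraries differed by 1.10 to 1.18 times the binomial variance, against 18.3 times between KO+N-KR and KO at 3i. Nothing in the labels says that they were separate cultures, so they were summed and counted as 1 sample, and levels are given for each library in CPM, the counts scaled to a common library total. Pou5f1, which marks pluripotent cells, stood at 986 and 953 CPM in KO+N-KR and 778 and 762 CPM in KO, and Sox2 at 869.5 and 863 CPM in KO+N-KR and 689 and 686 CPM in KO. Among 21 fibroblast genes that mark the feeders, 17 reached 5 CPM, 15 of those had a negative log2 ratio and the median was -0.17. Their summed level was 3909 CPM in KO+N-KR, 4174 CPM in KO+WT, 3265 CPM in KO and 2906 CPM in f/f, and most of it was Fn1, a matrix gene that stem cells share, with 3134 CPM in KO+N-KR and 2408 CPM in KO. Col1a1, a defining fibroblast gene, stood at 211 and 206 CPM in KO+N-KR and 230.4 and 217 CPM in KO, and Lum was at or near 0 in both. What the feeders contributed to the results below was not tested.

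With 1 sample a group, a gene was first called by size, at 2-fold or more where its higher sample reached 5 CPM, with no p-value. Of 10904 genes that reached that level, 42 were higher in KO+N-KR (0.385%) and 69 were lower (0.633%). Of these, 30 and 42 also passed the same limits in each library pair of the same number. The median log2 ratio of all 10904 genes was 0.02, with 5784 above 0, and 90% of them lay within 0.46 of 0. The ratio of one library pair differed from that of the other by less than 0.32 in 90% of genes. Just inside the limit stood Krt7 at 1.01 and Lin28b at -1.01, and just outside it St8sia1 at 0.99 and Sfn at -0.99.

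**Figure D1:**
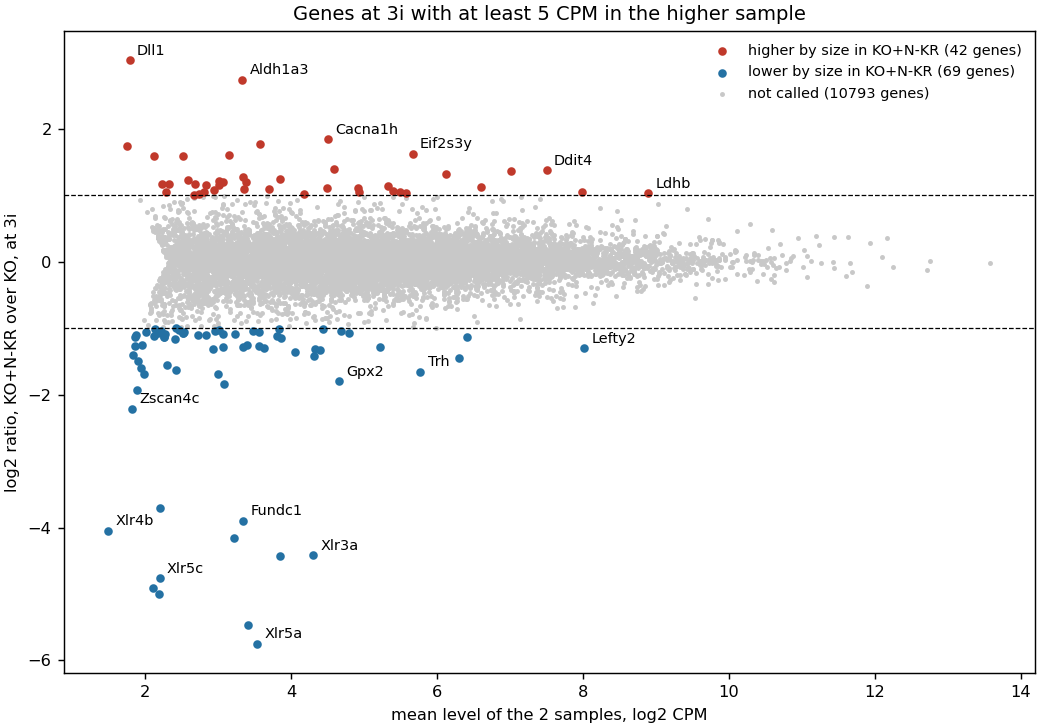
Each point is 1 of 10904 genes at 3i, with its mean level in log2 CPM on the x axis and its log2 ratio of KO+N-KR over KO on the y axis; dashed lines mark 2-fold. The cloud is narrow, 42 genes lie above it and 69 below, and the lowest points are the Xlr stretch of the X chromosome and Fundc1.

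A p-value needs a spread between separate samples. The only one that the design holds is that of the other samples around an additive model of genotype and state, so both 3i samples were given terms of their own in a fit to all 12 summed samples (edgeR, quasi-likelihood F-test, Benjamini-Hochberg adjustment, 4 residual degrees of freedom). It assumes that the lone samples vary like the others. In this fit 142 of 15558 genes rose in KO+N-KR (0.913%) and 183 fell (1.18%). Of the genes called by size, 29 of the higher and 43 of the lower were among them, and each was past an unadjusted p of 0.05. Below, "rose" and "fell" refer to this test, and its log2 differences are given ± SE. Fits that leave out an embryoid body day have fewer than these 4 residual degrees of freedom. The count is sensitive to the embryoid body samples that set the spread: 67 genes passed without day 1 and 853 without day 2. A fit to all 24 libraries set the samples against the spread between repeat libraries and called 2625 genes higher (18%) and 2388 lower (16.3%). It compares 2 RNA samples and is no test of the genotypes.

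Eed itself, which the cells were to regain, was measured at 172 and 167 CPM in the KO+N-KR libraries and 144 and 133 CPM in the KO libraries. Both KO+N-KR libraries lay above both KO libraries, but the difference did not pass the test (0.29 ± 0.16, adjusted p = 0.438). The KO+WT libraries held 389 and 393 CPM and the f/f libraries 179 and 172 CPM. Which part of Eed was deleted, and how reads of the added sequence were counted, is not stated in the labels, so these levels check neither the deletion nor the rescue. Skp1a, the ligase subunit in the series title, had 369 and 369.7 CPM in KO+N-KR and 352 and 344 CPM in KO (0.08 ± 0.10, adjusted p = 0.753).

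Among the other Polycomb genes and their textbook targets no member passed the test. None of the 6 core PRC2 subunits passed the test (edgeR; 0 at an unadjusted p of 0.05, 0 in DESeq2), with log2 ratios between -0.02 and 0.28. Ezh2, the methyltransferase, had 240.1 and 238 CPM in KO+N-KR and 244 and 239.7 CPM in KO, and Suz12, the scaffold, had 405 and 411 CPM in KO+N-KR and 367 and 369.5 CPM in KO. Of 21 PRC1 subunits, the complex that ubiquitinates histone H2A, none passed in edgeR (6 at an unadjusted p of 0.05, 1 in DESeq2). Of 68 textbook Polycomb targets outside the Hox clusters, 7 reached 5 CPM at 3i, and their median log2 ratio was -0.20. None of the 47 that could be tested passed (edgeR; 6 at an unadjusted p of 0.05, 3 in each direction, and 0 in DESeq2). Gata2, a transcription factor of blood and trophoblast, was the only target called higher by size, with 12.6 and 10.4 CPM in KO+N-KR against 5.52 and 4.30 CPM in KO. It did not pass the test (1.22 ± 0.44, adjusted p = 0.184), and stood at 17.4 and 17.0 CPM in KO+WT. Of 38 Hox genes, which pattern the body axis, 2 reached 5 CPM and none of 22 tested passed (1 at an unadjusted p of 0.05, 0 in DESeq2). Hoxb9 was called lower by size, with 2.31 and 2.17 CPM in KO+N-KR and 4.64 and 5.50 CPM in KO (adjusted p = 0.295).

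The largest differences were on the X chromosome, in the Xlr genes. This family of X-linked lymphocyte-regulated genes encodes proteins related to the synaptonemal complex protein SYCP3, and Xlr3b is imprinted in mouse brain. Xlr5a had 0.165 and 0.570 CPM in the KO+N-KR libraries and 22.6 and 23.0 CPM in the KO libraries. Xlr3a had 1.65 and 1.71 CPM in KO+N-KR and 37.7 and 37.4 CPM in KO, and Xlr5b had 0.330 and 0.456 CPM in KO+N-KR and 20.7 and 20.9 CPM in KO. Every KO+N-KR library lay far below every KO library. All 3 fell, with log2 differences of -6.06 ± 0.43 for Xlr5a (adjusted p = 3.22e-06), -4.48 ± 0.30 for Xlr3a (adjusted p = 2.42e-06) and -5.74 ± 0.39 for Xlr5b (adjusted p = 2.42e-06).

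The Xlr difference covered 1 stretch of neighbouring genes. In the order of the reference annotation, which placed 10544 of the 10904 genes, 10 tested genes in a row were called lower: Xlr4a, Xlr3a, Xlr5a, Gm14685, DXBay18, Xlr5b, Xlr3b, Xlr4b, Xlr3c and Xlr5c. The other runs of genes called the same way were of 2 genes each (Igfbp4 and Tns4, Slc43a1 and Slc43a3, Zscan4c and Zscan4f). Of 10 Xlr genes that were measured, 9 could be tested, and all 9 fell, including Xlr4c, which stood under 5 CPM with 0.165 and 0.456 CPM in KO+N-KR and 5.00 and 4.70 CPM in KO (-4.06 ± 0.47, adjusted p = 0.000480). Gm14685 and DXBay18 also fell (both adjusted p = 0.00200), and the call of DXBay18 was lost in DESeq2 (adjusted p = 0.208), which called 7 of the 9 Xlr genes and gave no adjusted p for Xlr4b and Xlr4c. Within the stretch F8a was an exception, with 1.82 and 2.17 CPM in KO+N-KR and 1.99 and 2.20 CPM in KO (-0.08). Outside it, Pnma5 had 32.2 and 32.4 CPM in KO+N-KR and 32.0 and 30.7 CPM in KO, and Zfp275 had 21.8 and 23.1 CPM in KO+N-KR and 22.1 and 21.0 CPM in KO, so the low levels ended on both sides. The summed level of the family was 5.89 CPM in KO+N-KR and 7.09 CPM in KO+WT, against 154 CPM in KO and 168 CPM in f/f: it was low in both cell lines with added EED and high in both without. In embryoid bodies Xlr3a was again low in KO+N-KR, with 1.73 CPM at day 1 and 1.47 CPM at day 2, against 30.5 and 41.2 CPM in KO on the same days.

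The family holds similar copies, so reads can be assigned to the wrong member and the single levels are uncertain. The fall was seen in all 9 members that were tested, and the other, Xlr, was at or near 0 in every library at 3i. The promoter windows of Xlr5a and Xlr5b are shown as the closest of the 3 pairs of members compared: each spans 250 bases before to 50 bases after the start (RefSeq, GRCm38.p6), and they share an unbroken run of 255 bases. The longest shared run was 58 bases between Xlr3a and Xlr3b, and 9 between Xlr3a and Xlr5a, the same as between Xlr5a and Fundc1, which is no relative. Xlr5a (chrX:73117653-73117952, minus strand) and Xlr5b (chrX:73148591-73148890, plus strand) are printed with CG pairs in capitals, 16 in each.
Xlr5a: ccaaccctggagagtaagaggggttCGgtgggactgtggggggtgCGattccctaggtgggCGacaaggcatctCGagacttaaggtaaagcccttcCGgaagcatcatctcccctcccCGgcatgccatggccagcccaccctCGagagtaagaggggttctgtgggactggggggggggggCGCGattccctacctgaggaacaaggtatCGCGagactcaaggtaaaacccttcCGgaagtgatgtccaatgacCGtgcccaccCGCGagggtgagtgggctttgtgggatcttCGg
Xlr5b: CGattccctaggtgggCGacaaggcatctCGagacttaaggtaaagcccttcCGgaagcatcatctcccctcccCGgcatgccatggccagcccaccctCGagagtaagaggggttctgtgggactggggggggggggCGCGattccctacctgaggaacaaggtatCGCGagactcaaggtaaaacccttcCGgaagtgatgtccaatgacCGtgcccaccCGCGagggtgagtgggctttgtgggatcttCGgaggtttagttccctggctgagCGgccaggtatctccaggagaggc
The window of Xlr5a opens before the shared run and that of Xlr5b ends after it. CG pairs are where DNA methylation can lie, and methylation was not measured in these libraries.

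**Figure D2:**
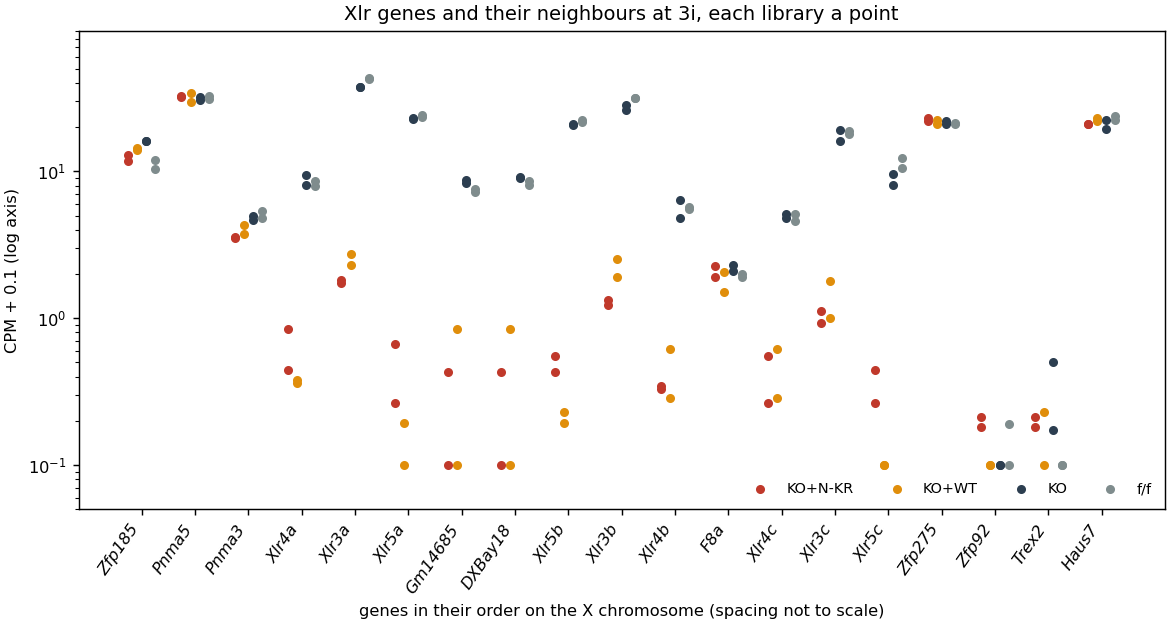
Level of each library (CPM + 0.1, log axis) for Xlr genes and their neighbours in chromosome order at 3i, with KO+N-KR, KO+WT, KO and f/f side by side for each gene. From Xlr4a to Xlr5c, except F8a, the KO+N-KR and KO+WT points lie far below the KO and f/f points, and the flanking genes show no such gap.

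On the sex chromosomes, Fundc1 and Eif2s3y also stood apart in KO+N-KR from the 3 other lines. Fundc1, an X-linked receptor for the removal of mitochondria, had 1.49 and 0.798 CPM in KO+N-KR against 19.2 and 18.8 CPM in KO, while KO+WT held 18.0 and 20.8 CPM and f/f 18.9 and 21.7 CPM. Fundc1 fell (log2 difference -3.99 ± 0.23, adjusted p = 1.18e-06), the lowest adjusted p of the comparison. In embryoid bodies the log2 ratio was -3.64 at day 1 and -3.33 at day 2. Nearby Kdm6a, an H3K27 demethylase, had 68.2 and 63.1 CPM in KO+N-KR and 58.7 and 60.0 CPM in KO (0.15 ± 0.13, adjusted p = 0.633). Efhc2 on the other side was under 1 CPM in both, with 4 counts in KO+N-KR and 16 in KO. Chst7, beyond Kdm6a, had 5 and 15 counts, and both genes were too shallow for a call by size. Eif2s3y, a Y-linked subunit of translation initiation factor eIF2, had 77.2 and 76.0 CPM in KO+N-KR and 24.0 and 25.7 CPM in KO. It rose by 1.63 ± 0.13 (adjusted p = 1.54e-05), and the log2 ratio was 1.62 and 1.77 in embryoid bodies at day 1 and day 2. KO+WT and f/f were close to KO, at 32.1 and 28.1 CPM and 32.5 and 27.7 CPM. Its neighbours on the Y chromosome rose by less: Ddx3y, an RNA helicase, by 0.81 ± 0.12 (adjusted p = 0.00360) and Uty, a relative of Kdm6a, by 0.69 ± 0.15 (adjusted p = 0.0255). Ddx3y had 111 and 111 CPM in KO+N-KR and 62.5 and 63.5 CPM in KO. Uty had 30.1 and 29.5 CPM in KO+N-KR and 18.3 and 18.6 CPM in KO, and KO+WT was as high, at 30 and 27.8 CPM. Kdm5d, also Y-linked, stood at 1.40 and 1.25 CPM in KO+N-KR and 1.32 and 2.00 CPM in KO. Uty, Ddx3y and Kdm5d were chosen as neighbours after the values of Eif2s3y were seen.

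Apart from the Xlr family, the gene list with the most members past the test was that of hypoxia and glycolysis. These genes are classical targets of the hypoxia-inducible factor HIF, which is degraded when oxygen is plentiful and otherwise switches on glucose uptake, glycolysis and the formation of vessels. Of 19 members, 9 rose and none fell, and 18 reached 5 CPM, all with a positive log2 ratio (median 0.43, against 0.02 over all genes). By size, 2 of the 18 were called higher. The count of 9 was 8 to 12 under other scaling, tool, filter and library settings, and 6 without embryoid body day 1, where Pgk1, Pfkl and Aldoa were lost. It was 15 without day 2.

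Ddit4, a stress-induced inhibitor of the growth kinase mTORC1, had 265 and 258 CPM in KO+N-KR and 99.1 and 102 CPM in KO. Ddit4 rose by 1.38 ± 0.21 (adjusted p = 0.00444), with no overlap between the libraries. Bhlhe40, a transcriptional repressor induced by low oxygen, had 132 and 136 CPM in KO+N-KR and 63.6 and 57.1 CPM in KO, and rose by 1.14 ± 0.17 (adjusted p = 0.00394). Egln3, a prolyl hydroxylase that marks HIF for degradation and is itself a HIF target, had 85.2 and 83.8 CPM in KO+N-KR and 45.0 and 40.1 CPM in KO, and rose by 0.98 ± 0.14 (adjusted p = 0.00270). Bnip3, a mitophagy receptor, had 224 and 221 CPM in KO+N-KR and 116 and 115 CPM in KO (0.94 ± 0.14, adjusted p = 0.00394). The KO libraries lay below those of all other lines for each of these 4 genes: KO+WT held 167 and 158 CPM of Ddit4 and 182 and 182 CPM of Bnip3, and f/f held 279 and 287 CPM of Ddit4 and 208 and 204 CPM of Bnip3. Vegfa, the vessel growth factor, had 144 and 137 CPM in KO+N-KR and 75.4 and 72.8 CPM in KO (0.92 ± 0.17, adjusted p = 0.0127). Slc2a1, the glucose transporter GLUT1, had 682 and 674 CPM in KO+N-KR and 373 and 364 CPM in KO (0.88 ± 0.16, adjusted p = 0.0135).

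The glycolytic enzymes of the list had smaller differences. Pgk1 rose by 0.47 ± 0.10 (adjusted p = 0.0236), Pfkl by 0.40 ± 0.09 (adjusted p = 0.0416) and Aldoa by 0.38 ± 0.09 (adjusted p = 0.0491). Ldha, which makes lactate, had 1601 and 1576 CPM in KO+N-KR and 1380.3 and 1364 CPM in KO and did not pass (0.21 ± 0.13, adjusted p = 0.477). Ldhb, the other lactate dehydrogenase and no member of the list, rose by 1.03 ± 0.15 (adjusted p = 0.00270), with 641 and 632 CPM in KO+N-KR and 318 and 302 CPM in KO. Ndrg1, a hypoxia-inducible gene outside the list that was chosen after its values were seen, had 57.4 and 52.4 CPM in KO+N-KR and 24.4 and 25.5 CPM in KO (1.15 ± 0.18, adjusted p = 0.00484). Ldhb was likewise chosen after its values were seen. The summed level of the list was 14935 CPM in KO+N-KR, 12874 CPM in KO+WT and 14679.5 CPM in f/f, against 11149 CPM in KO. Oxygen, culture density and the time of harvest are not given in the labels, and their part in this result was not tested.

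The hypoxia and glycolysis genes did not show this difference in embryoid bodies. Over the same 18 genes the median log2 ratio of KO+N-KR over KO was -0.12 at day 1 and -0.11 at day 2. The test of the difference between 3i and embryoid bodies, made in the same 12-sample fit, was passed by 65 of 15558 genes (0.418%), 51 of them with the larger value at 3i. In the list 7 passed: Slc2a1, Bnip3, Ddit4, Bhlhe40, Vegfa, Egln3 and P4ha1, a collagen prolyl hydroxylase. Bhlhe40 went furthest (2.21 ± 0.21, adjusted p = 0.000864): its log2 ratio was 1.13 at 3i, -1.25 at day 1 and -0.93 at day 2. Vegfa followed (2.00 ± 0.22, adjusted p = 0.00178), with 0.92, -0.92 and -1.22 in the same order. For Ddit4 the difference was 1.60 ± 0.26 (adjusted p = 0.0200) and for Egln3 1.27 ± 0.17 (adjusted p = 0.00996). These 7 calls held under the other scaling, DESeq2 and with either library of each group left out.

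**Figure D3:**
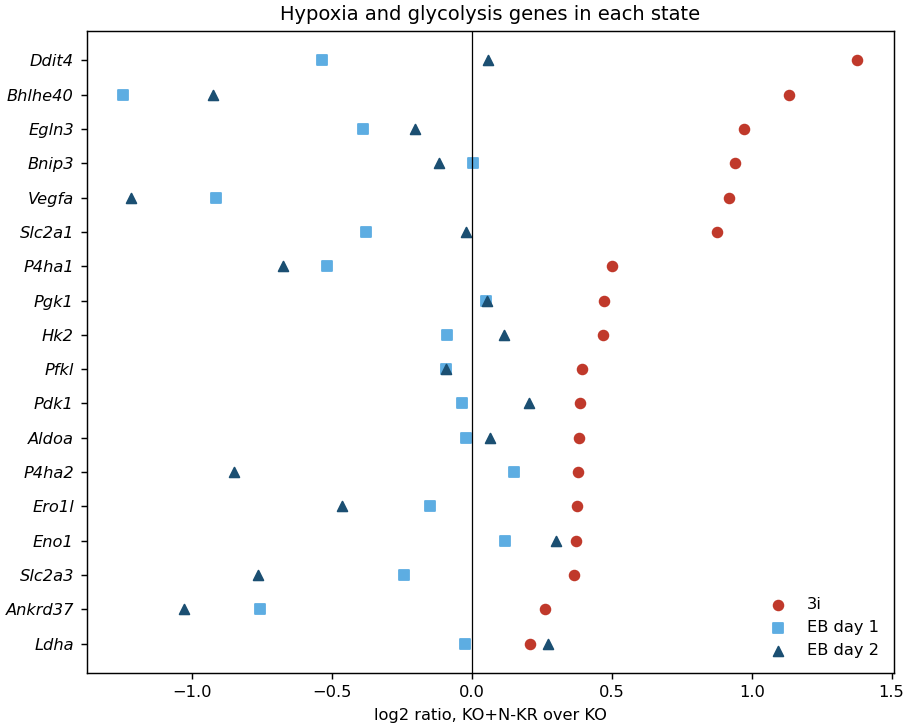
Log2 ratio of KO+N-KR over KO for the 18 hypoxia and glycolysis genes with at least 5 CPM at 3i (1 gene a line), in 3i (circles), embryoid bodies at day 1 (squares) and at day 2 (triangles), 1 sample a group. At 3i all 18 lie above 0, while the embryoid body points lie on both sides of it.

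The promoter windows of these genes were searched for ACGTG, the letters at the core of the element that HIF binds, on both strands. A window was found in RefSeq (GRCm38.p6) for 15 of the 18, and 10 of them (66.7%) held the letters, against 27% of 7796 windows of all tested genes. Among the genes called by size, the share was 25.0% of 28 windows for those higher and 12.8% of 47 windows for those lower. The windows of the genes called lower were also poor in CG pairs (median 8, against 22 in all tested genes and 24 in those called higher), and the motif itself holds a CG. Of the windows with the letters 4, all of genes that rose, are shown with ACGTG in capitals: Ddit4 (chr10:59951721-59952020, minus strand), Egln3 (chr12:54203825-54204124, minus strand), Bnip3 (chr7:138909457-138909756, minus strand, where CACGTG reads as ACGTG on either strand) and Slc2a1 (chr4:119108495-119108794, plus strand).
Ddit4: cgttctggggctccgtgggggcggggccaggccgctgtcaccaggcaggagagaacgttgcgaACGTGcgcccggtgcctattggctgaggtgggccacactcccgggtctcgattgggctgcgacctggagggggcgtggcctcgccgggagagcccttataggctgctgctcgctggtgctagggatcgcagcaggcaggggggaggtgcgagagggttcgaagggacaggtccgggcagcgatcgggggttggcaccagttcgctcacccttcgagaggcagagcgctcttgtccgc
Egln3: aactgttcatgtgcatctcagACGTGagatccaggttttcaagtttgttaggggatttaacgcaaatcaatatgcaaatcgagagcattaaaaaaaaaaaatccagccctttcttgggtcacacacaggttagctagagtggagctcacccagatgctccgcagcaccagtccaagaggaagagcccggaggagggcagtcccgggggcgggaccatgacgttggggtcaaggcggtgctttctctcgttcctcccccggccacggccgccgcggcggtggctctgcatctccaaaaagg
Bnip3: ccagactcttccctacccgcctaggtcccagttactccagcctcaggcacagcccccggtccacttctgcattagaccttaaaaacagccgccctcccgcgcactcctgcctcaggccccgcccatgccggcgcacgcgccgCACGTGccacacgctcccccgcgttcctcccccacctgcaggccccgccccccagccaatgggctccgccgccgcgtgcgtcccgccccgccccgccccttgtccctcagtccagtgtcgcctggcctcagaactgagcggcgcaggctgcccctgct
Slc2a1: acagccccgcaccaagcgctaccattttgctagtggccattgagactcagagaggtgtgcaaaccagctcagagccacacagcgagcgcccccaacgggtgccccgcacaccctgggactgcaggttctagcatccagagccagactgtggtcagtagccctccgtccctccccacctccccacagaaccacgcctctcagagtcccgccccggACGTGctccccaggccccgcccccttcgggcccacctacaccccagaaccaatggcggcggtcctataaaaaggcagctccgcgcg
A match describes the letters in the window and does not show binding. The list is made of classical HIF targets, so its share describes the list and not the comparison of KO+N-KR with KO. Vegfa, Pfkl, Aldoa, Eno1 and Pdk1 had no match in theirs.

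The other genes higher in KO+N-KR belonged to several kinds. Dll1, a ligand of Notch receptors, had 6.27 and 6.15 CPM in KO+N-KR and 0.662 and 0.700 CPM in KO, the largest ratio among the higher genes. Dll1 rose by 3.18 ± 0.61 (adjusted p = 0.0159), but not without the first library of each group (adjusted p = 0.0561), and KO+WT and f/f were as high as 5.42 and 7.41 CPM and 4.07 and 5.03 CPM. Dner, which encodes a surface protein described as a Notch ligand, rose by 1.79 ± 0.32 (adjusted p = 0.00960), with 19.1 and 17.7 CPM in KO+N-KR and 6.11 and 4.30 CPM in KO. Notch4, a receptor, fell (-1.05 ± 0.25, adjusted p = 0.0472), with 7.01 and 7.52 CPM in KO+N-KR and 16.0 and 13.5 CPM in KO; its call was lost without the first libraries (adjusted p = 0.287) and without embryoid body day 1. Of 16 Notch pathway genes tested Dll1 alone rose and Notch4 alone fell; Dner was not in the list. Hes1, a Notch target, had 63.6 and 69.7 CPM in KO+N-KR and 48.1 and 44.0 CPM in KO and did not pass (adjusted p = 0.211).

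Aldh1a3, which makes retinoic acid from retinal, had 15.1 and 21.0 CPM in KO+N-KR and 2.72 and 2.30 CPM in KO, and rose by 2.78 ± 0.31 (adjusted p = 0.000428). No other line reached that level: KO+WT had 5.33 and 5.46 CPM and f/f 3.13 and 2.42 CPM. Cacna1h, a T-type calcium channel, rose by 1.86 ± 0.22 (adjusted p = 0.000715), with 36.3 and 34.5 CPM in KO+N-KR and 11.0 and 8.20 CPM in KO. Igfbp4, which binds insulin-like growth factors, had 187 and 182 CPM in KO+N-KR and 72.8 and 69.9 CPM in KO (1.37 ± 0.19, adjusted p = 0.00200), and A2m, a protease inhibitor of plasma, had 96.9 and 103 CPM in KO+N-KR and 38.2 and 41.7 CPM in KO (1.33 ± 0.18, adjusted p = 0.00200). In each of these 4 genes the KO+N-KR libraries were the highest at 3i, KO+WT came next, and KO was lowest or close to f/f.

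The higher level of these genes was less plain in embryoid bodies, where KO+N-KR also held less of each than at 3i. At day 1, KO+N-KR and KO had 4.81 and 3.70 CPM of A2m and 3.08 and 2.08 CPM of Cacna1h. These lie under the 5 CPM needed for a call by size, which both genes reached at day 2. Aldh1a3 was under 5 CPM on both days, with 0.785 and 0.314 CPM at day 2. Igfbp4 stayed above it, with 17.2 and 14.9 CPM at day 1. The log2 ratios in embryoid bodies at day 1 and day 2 were 0.54 and -0.40 for Cacna1h, 0.21 and -0.41 for Igfbp4, and 0.37 and -0.36 for A2m. Whether the lower levels account for the smaller ratios was not tested. The difference from 3i passed the test for Cacna1h (1.89 ± 0.30, adjusted p = 0.0200), Igfbp4 (1.52 ± 0.24, adjusted p = 0.0200) and A2m (1.37 ± 0.26, adjusted p = 0.0388; 0.0512 under library totals alone). For Aldh1a3 it did not (2.17 ± 0.44, adjusted p = 0.0529). Tns4, a tensin of cell adhesions, rose by 1.63 ± 0.28 (adjusted p = 0.00857) and Emid2, a collagen, by 1.62 ± 0.28 (adjusted p = 0.00936). Dio3, the enzyme that inactivates thyroid hormone, had 5.36 and 5.01 CPM in KO+N-KR and 1.84 and 0.999 CPM in KO (1.81 ± 0.39, adjusted p = 0.0277), and KO+WT was as high, at 6.91 and 7.02 CPM. Hrk, an activator of apoptosis, rose by 1.25 ± 0.29 (adjusted p = 0.0416). Both calls were lost without the second libraries and without embryoid body day 1 (adjusted p up to 0.0848 for Dio3 and 0.168 for Hrk), and that of Hrk in DESeq2 too.

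Other genes called higher include Cd68. Vwf and Ntn1, also called higher, were chosen after their values were seen. Cd68, a lysosomal protein of macrophages, had 31.3 and 29.7 CPM in KO+N-KR and 13.2 and 15.4 CPM in KO (1.11 ± 0.16, adjusted p = 0.00270). Vwf, the von Willebrand factor of endothelium, had 59.6 and 53.7 CPM in KO+N-KR and 26.3 and 28.3 CPM in KO (1.07 ± 0.17, adjusted p = 0.00444). Ntn1, a guidance cue for axons, had 62.0 and 66.1 CPM in KO+N-KR and 31.0 and 31.0 CPM in KO (1.04 ± 0.18, adjusted p = 0.00960). None of 6 genes tested from a list of endothelial and blood markers passed in edgeR (1 at an unadjusted p of 0.05) or DESeq2. Chst11, a sulfotransferase, had 35.4 and 33.8 CPM in KO+N-KR and 13.7 and 12.4 CPM in KO, but did not pass (1.40 ± 0.36, adjusted p = 0.0590). Chst11 did pass under 4 of 7 other settings.

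Some genes past the test rose by less than 2-fold. Kdm4b, an H3K9 demethylase, had 81.5 and 80.3 CPM in KO+N-KR and 43.5 and 40.0 CPM in KO (0.95 ± 0.11, adjusted p = 0.000696). Ephx2, the soluble epoxide hydrolase, had 152 and 157 CPM in KO+N-KR and 78.4 and 81.6 CPM in KO (0.95 ± 0.13, adjusted p = 0.00200). Ahsa1, a co-chaperone of HSP90, had 393 and 371 CPM in KO+N-KR and 221 and 216 CPM in KO (0.81 ± 0.11, adjusted p = 0.00200), while KO+WT and f/f stood at 227 and 237 CPM and 245 and 252 CPM. Its log2 ratio was as large in embryoid bodies, 0.70 at day 1 and 0.93 at day 2.

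**Figure D4:**
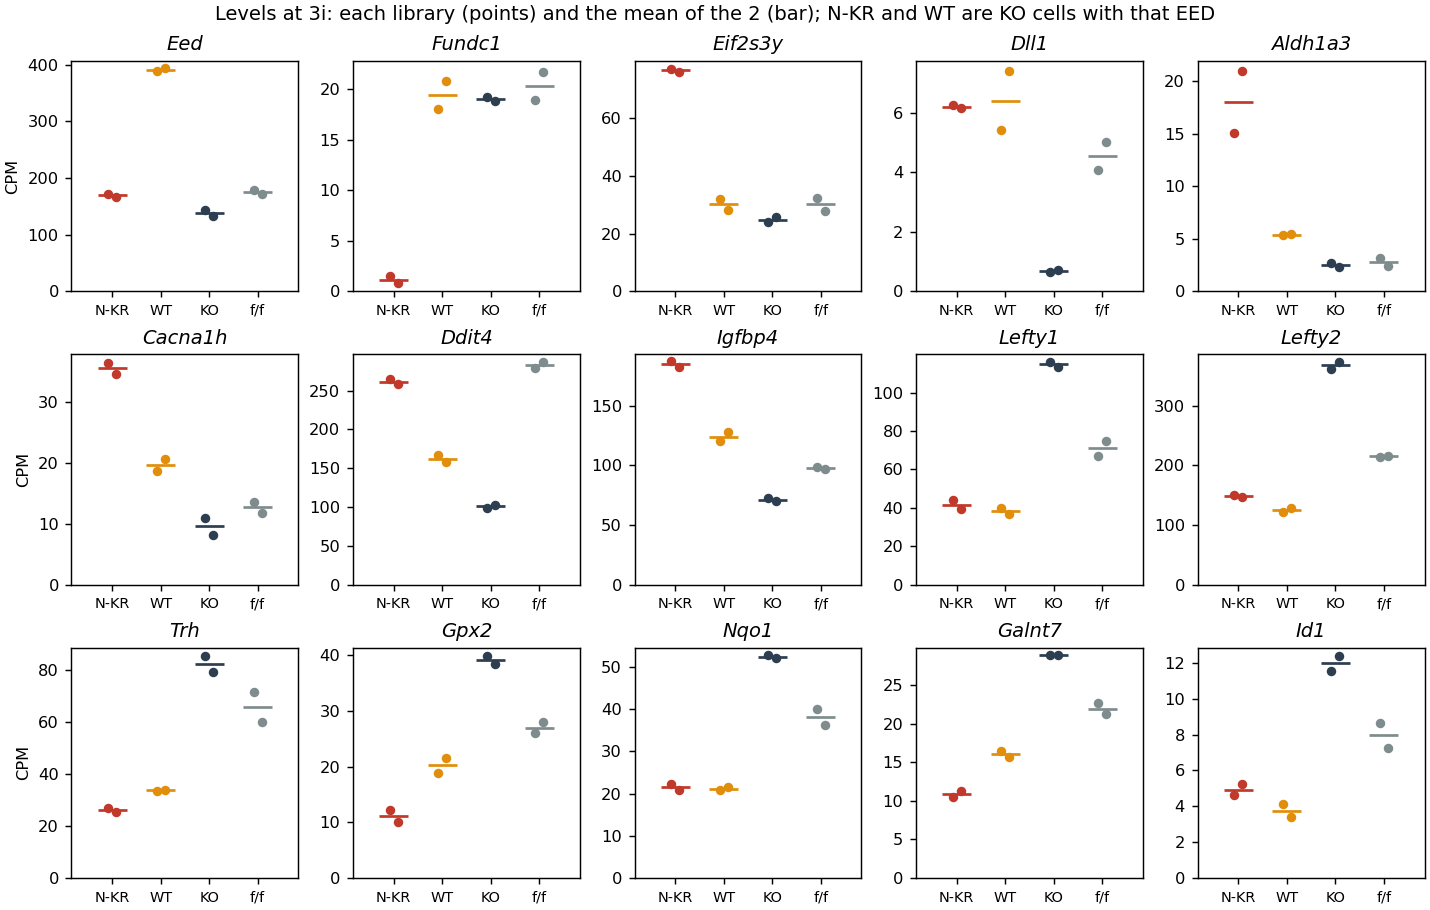
Level in CPM at 3i of 15 genes (1 panel each, y axis from 0) in KO+N-KR, KO+WT, KO and f/f, with a point for each of the 2 libraries and a bar at their mean. KO+N-KR stands apart from the other lines for Fundc1, Eif2s3y and Aldh1a3, and both lines with added EED lie below KO for Lefty1, Lefty2, Trh and Nqo1.

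Among the genes that were lower in KO+N-KR, one group of related function was that of glutathione and detoxification genes, many of which are targets of the oxidative stress factor NRF2. This list of 18 was drawn up after Gpx2 and Nqo1 had been seen, so its count is a description only. Of the 18, 4 fell and none rose, and the median log2 ratio was -0.16; 3 fell without embryoid body day 1 and 6 under library totals alone. Without day 2, 6 fell and 1, Gsta4, rose, and 3 of the 18 were higher at an unadjusted p of 0.05. Gpx2, a glutathione peroxidase, had 12.1 and 10.0 CPM in KO+N-KR and 39.8 and 38.5 CPM in KO, with 18.8 and 21.6 CPM in KO+WT and 26.0 and 28.0 CPM in f/f. Gpx2 fell (-1.81 ± 0.19, adjusted p = 0.000251), and its pseudogene Gpx2-ps1, which can share reads with it, was also called lower by size. Nqo1, a quinone reductase, had 22.2 and 20.9 CPM in KO+N-KR and 53 and 52.1 CPM in KO (-1.28 ± 0.15, adjusted p = 0.000534). Srxn1, sulfiredoxin, had 26.6 and 29.5 CPM in KO+N-KR and 52.8 and 48.2 CPM in KO (-0.87 ± 0.12, adjusted p = 0.00200). Gsr, glutathione reductase, had 152 and 154 CPM in KO+N-KR and 249 and 244 CPM in KO (-0.70 ± 0.10, adjusted p = 0.00231); the call was lost without day 1 (adjusted p = 0.0508). The KO+WT libraries were as low as those of KO+N-KR, with 20.9 and 21.5 CPM of Nqo1, 24.7 and 27.2 CPM of Srxn1 and 154 and 153 CPM of Gsr. Txnrd1, thioredoxin reductase, did not pass (adjusted p = 0.0999), nor did Hmox1 (adjusted p = 0.843), a classical NRF2 target with 64.0 and 69.6 CPM in KO+N-KR and 69.7 and 70.1 CPM in KO. The difference at 3i was larger than in embryoid bodies for Gpx2 (-1.61 ± 0.23, adjusted p = 0.0128) and Nqo1 (-1.09 ± 0.18, adjusted p = 0.0200).

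Nodal signals keep epiblast cells pluripotent and later direct them to mesendoderm. Lefty2, a secreted inhibitor of Nodal and a target of its signal, had 151 and 146 CPM in KO+N-KR and 361 and 373 CPM in KO, and fell (-1.30 ± 0.24, adjusted p = 0.0139). Lefty1 had 43.9 and 39.4 CPM in KO+N-KR and 116 and 113 CPM in KO, a larger ratio that did not pass (-1.45 ± 0.38, adjusted p = 0.0679). Lefty1 did fall with no filter, with either library of each group left out and without embryoid body day 2. The 2 lines with added EED were alike, with 121 and 128 CPM of Lefty2 and 40.0 and 36.9 CPM of Lefty1 in KO+WT, and f/f lay between them and KO, with 215 and 216 CPM of Lefty2 and 66.8 and 75.0 CPM of Lefty1. Nodal itself had 82.0 and 74.6 CPM in KO+N-KR and 77.8 and 75.8 CPM in KO (0.03 ± 0.12, adjusted p = 0.936). Of 12 pathway genes tested Lefty2 alone passed in the main fit, and Tdgf1 rose without embryoid body day 2. At an unadjusted p of 0.05 in edgeR, 3 were higher and 2 lower. In embryoid bodies the log2 ratio of Lefty2 was -2.03 at day 1 and -1.44 at day 2, and that of Lefty1 -0.85 and -0.20.

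Other lower genes had no common list. Galnt7, an enzyme of O-glycosylation, had 10.5 and 11.3 CPM in KO+N-KR and 28.8 and 28.9 CPM in KO (-1.42 ± 0.15, adjusted p = 0.000229), and its log2 ratio was near the same in embryoid bodies (-1.45 and -1.49). Tubb3, a tubulin of neurons, had 12.0 and 10.7 CPM in KO+N-KR and 29.9 and 26.9 CPM in KO (-1.32 ± 0.20, adjusted p = 0.00360). Mtap1a, a microtubule-associated protein, had 12.3 and 11.6 CPM in KO+N-KR and 29.5 and 31.0 CPM in KO (-1.33 ± 0.17, adjusted p = 0.00172), and its relative Mtap1b, chosen after its values were seen, fell too (-0.92 ± 0.13, adjusted p = 0.00287). Mtap1a was likewise chosen after its values were seen. Of 5 neuronal markers tested, Tubb3 alone passed, and 2 others, Snap25 and Nefl, were higher at an unadjusted p of 0.05.

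Lass4, a ceramide synthase, had 7.34 and 6.38 CPM in KO+N-KR and 16.3 and 17.3 CPM in KO (-1.27 ± 0.17, adjusted p = 0.00200). Rps6ka6, a kinase of the RSK family, had 52.6 and 54.7 CPM in KO+N-KR and 116 and 117 CPM in KO (-1.13 ± 0.15, adjusted p = 0.00200). Fam38a, the mechanosensitive channel now named Piezo1, had 101 and 98.6 CPM in KO+N-KR and 184 and 177 CPM in KO (-0.86 ± 0.10, adjusted p = 0.000490). In all 3, KO+N-KR was the lowest of the 4 lines and KO the highest, but these 3 were chosen after their values were seen. Fzd6, a Wnt receptor, fell (-1.29 ± 0.25, adjusted p = 0.0187), as did Gli3, a transcription factor of Hedgehog signalling (-1.10 ± 0.20, adjusted p = 0.0102), and Cdh3, P-cadherin (-1.02 ± 0.16, adjusted p = 0.00405), all 3 chosen after their values were seen. Slfn9, of the Schlafen family, fell (-1.86 ± 0.28, adjusted p = 0.00395). D10Bwg1379e also fell (-1.74 ± 0.30, adjusted p = 0.00857), but not without embryoid body day 1 (adjusted p = 0.0504).

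Several genes with ratios past 2-fold did not pass the test. Trh, the precursor of thyrotropin-releasing hormone, had 27.1 and 25.2 CPM in KO+N-KR and 85.5 and 79.1 CPM in KO (-1.66 ± 0.46, adjusted p = 0.0835). Id1, an inhibitor of differentiation factors, had 4.62 and 5.24 CPM in KO+N-KR and 11.6 and 12.4 CPM in KO (-1.29 ± 0.32, adjusted p = 0.0506). Under 7 other settings, Trh passed in 2 and Id1 in 3. The Zscan4 genes, which mark rare stem cells in a state like that of the 2-cell embryo, are near-identical copies, and Zscan4c and Zscan4f were called lower by size. Zscan4c had 0.908 and 1.60 CPM in KO+N-KR and 5.15 and 6.80 CPM in KO (-2.29 ± 0.65, adjusted p = 0.0900), while KO+WT stood above both, at 11.4 and 10.5 CPM. Of 13 genes of the 2-cell-like list tested, none passed in the main edgeR fit, 9 were lower at an unadjusted p of 0.05 and 3 fell in DESeq2. In edgeR with no filter Zscan4a to Zscan4f fell, and without embryoid body day 2 those genes and Gm8300 fell. A lower level in bulk RNA can mean fewer such cells or less RNA in each, and these cannot be told apart.

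Of 17 naive pluripotency genes, all above 5 CPM, 1 rose: Esrrb, a nuclear receptor of the naive network, with 1023 and 1027 CPM in KO+N-KR and 648 and 653 CPM in KO (0.65 ± 0.14, adjusted p = 0.0285). The median log2 ratio of the list was 0.10, with 10 members positive and 7 negative. At an unadjusted p of 0.05 in edgeR, 6 were higher and 0 lower. Tbx3 and Tet2 had log2 ratios of 0.64 and 0.64 but did not pass (adjusted p = 0.134 and 0.314), and KO+WT stood above KO in both, with 421 and 418 CPM of Tbx3 and 188 and 180.0 CPM of Tet2. Tbx3 and Fgf4 rose with no filter and without embryoid body day 2, and Tet2 and Nr0b1 rose without day 2. Nanog had 523 and 506 CPM in KO+N-KR and 485 and 473 CPM in KO (0.10 ± 0.17, adjusted p = 0.838). Of 16 formative and primed epiblast genes tested, Etv5 fell and none rose. Etv5, a transcription factor induced by FGF-ERK signalling, had 135 and 129 CPM in KO+N-KR and 195 and 203 CPM in KO (-0.59 ± 0.12, adjusted p = 0.0239). Ccnd1, cyclin D1, also fell (-0.55 ± 0.12, adjusted p = 0.0368), with 65.3 and 59.9 CPM in KO+N-KR and 93.1 and 90.3 CPM in KO. These were the only 2 of 14 FGF-ERK feedback genes past the test, and 11 of the 13 that reached 5 CPM had a negative log2 ratio (median -0.26). KO+WT was the highest line for both, with 279.8 and 273 CPM of Etv5 and 120.5 and 123 CPM of Ccnd1. The list went in both directions: at an unadjusted p of 0.05 in edgeR, 2 members were higher and 3 lower. Without embryoid body day 2, 2 rose and 2 fell. The calls of Esrrb, Etv5 and Ccnd1 were lost without embryoid body day 1 (adjusted p = 0.112, 0.133 and 0.185).

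Immediate early genes answer growth factors and handling within minutes. All 14 that reached 5 CPM had a negative log2 ratio (median -0.31), and 2 of 16 tested fell. Jund, of the AP-1 family, had 152 and 143 CPM in KO+N-KR and 214 and 213 CPM in KO (-0.53 ± 0.13, adjusted p = 0.0491). Btg2, an antiproliferative gene that p53 also induces, had 48.8 and 47.5 CPM in KO+N-KR and 74.1 and 73.8 CPM in KO (-0.62 ± 0.13, adjusted p = 0.0259). Both calls were lost without embryoid body day 1, and that of Jund also without the second libraries (adjusted p up to 0.184 for Jund and 0.118 for Btg2). Egr1 had 393 and 386 CPM in KO+N-KR and 481 and 479.7 CPM in KO (-0.30 ± 0.33, adjusted p = 0.729). Among 19 heat shock and unfolded protein genes, Hspa8, the constitutive HSP70 chaperone, fell (-0.37 ± 0.08, adjusted p = 0.0291), but not without day 1 (adjusted p = 0.160). None of 25 proteasome genes passed (0 at an unadjusted p of 0.05, 0 in DESeq2), with log2 ratios between -0.19 and 0.14.

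Of the lineage lists, those of primitive endoderm and trophoblast had members that rose. Among 20 primitive endoderm genes, which mark the extraembryonic layer that faces the blastocyst cavity, Lama1 and Apoe rose, and the 9 that reached 5 CPM all had a positive log2 ratio (median 0.37). Lama1, a laminin of basement membranes, had 227 and 230.2 CPM in KO+N-KR and 143 and 144 CPM in KO (0.67 ± 0.14, adjusted p = 0.0259). Apoe, a lipid carrier, had 1291 and 1270.3 CPM in KO+N-KR and 936 and 918 CPM in KO (0.46 ± 0.09, adjusted p = 0.0213). Both calls were lost without day 1 (adjusted p = 0.0728 and 0.150), and the defining factors were low: Gata6 had 3.88 and 3.42 CPM in KO+N-KR and 1.84 and 2.00 CPM in KO, and Sox17 1.24 and 1.60 CPM in KO+N-KR and 1.18 and 1.10 CPM in KO. Among 10 trophoblast genes tested, Ascl2, a transcription factor of the placenta, rose by 1.63 ± 0.39 (adjusted p = 0.0459), with 6.19 and 7.18 CPM in KO+N-KR and 2.43 and 1.70 CPM in KO. That call was lost under library totals alone, without the second libraries and without day 1 (adjusted p up to 0.143). Esx1 and Krt7 were called higher by size but did not pass (adjusted p = 0.278 and 0.151). Of the 7 trophoblast genes that reached 5 CPM, 3 had a negative log2 ratio: Krt8 (-0.77), Tfap2c (-0.57) and Krt18 (-0.38). The summed level of the list was 216 CPM in KO+N-KR and 254 CPM in KO, and without embryoid body day 2 its count was 3 risen and 2 fallen. Cdx2 was at or near 0 in every library at 3i. Primitive streak, mesoderm and neuroectoderm lists had no member past the test in edgeR (2, 1 and 1 at an unadjusted p of 0.05) or DESeq2.

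Imprinted genes changed in both directions. Of 39 tested, 3 rose and 2 fell. Impact, an inhibitor of the kinase GCN2 expressed from the paternal copy, had 189.8 and 186 CPM in KO+N-KR and 95.0 and 95.3 CPM in KO (0.98 ± 0.13, adjusted p = 0.00200). Peg3, also paternal, had 115 and 113 CPM in KO+N-KR and 72.3 and 72.2 CPM in KO (0.66 ± 0.13, adjusted p = 0.0181). For both, KO+WT and f/f were close to KO, and the log2 ratios in embryoid bodies were positive (0.68 and 0.72 for Impact, 1.18 and 0.99 for Peg3). Ascl2 was the other that rose. Mest, paternal, fell (-1.08 ± 0.18, adjusted p = 0.00810), with 18.2 and 17.4 CPM in KO+N-KR and 36.3 and 39.6 CPM in KO, and KO+WT was also low, at 21.5 and 22.0 CPM. H19, a maternal noncoding RNA, had 22.9 and 21.3 CPM in KO+N-KR and 41.1 and 42.6 CPM in KO (-0.91 ± 0.22, adjusted p = 0.0494). The call of H19 was lost under library totals alone, without the second libraries and without day 1 (adjusted p up to 0.0574), and that of Peg3 without day 1 (adjusted p = 0.120). Impact and Mest passed under every setting run.

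Another group of genes is imprinted in the embryo through H3K27 methylation itself. Of 16 such genes, Gab1, a signalling adaptor, fell (-0.51 ± 0.11, adjusted p = 0.0254), with 292 and 285 CPM in KO+N-KR and 408 and 417 CPM in KO. Smoc1, a matrix protein, fell too (-0.76 ± 0.16, adjusted p = 0.0246), with 12.5 and 15.0 CPM in KO+N-KR and 23.7 and 21.9 CPM in KO. The call of Gab1 was lost without day 1 (adjusted p = 0.124), and that of Smoc1 without day 1 and without the first libraries (adjusted p up to 0.184). Sfmbt2, a Polycomb-group gene of that list, had 18.2 and 19.8 CPM in KO+N-KR and 36.1 and 35.9 CPM in KO, and KO+WT and f/f were as low as KO+N-KR, at 20.3 and 21.7 CPM and 20.0 and 20.7 CPM. It did not pass (-0.93 ± 0.27, adjusted p = 0.0910), and in embryoid bodies its log2 ratio was -1.84 at day 1 and -2.93 at day 2. Sfmbt2 did fall in DESeq2, with no filter and without either embryoid body day.

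The other pathway lists held no gene past the test in edgeR. Of 12 SCF ligase genes tested, which include Skp1a, 2 had an unadjusted p under 0.05 and DESeq2 called 0. Of 20 germline genes, 2 had an unadjusted p under 0.05 and DESeq2 called 0, while 10 of the 11 that reached 5 CPM had a negative log2 ratio (median -0.35). Of 20 cholesterol synthesis genes, 6 had an unadjusted p under 0.05, all lower, and DESeq2 called 0. Of 14 WNT feedback genes, 4 were lower at an unadjusted p under 0.05 and DESeq2 called 0. Among these Notum, which inactivates Wnt proteins, was called lower by size, with 3.63 and 2.28 CPM in KO+N-KR and 7.21 and 5.70 CPM in KO (adjusted p = 0.0926). Of 9 DNA methylation and TET genes, 3 were higher at an unadjusted p under 0.05 and DESeq2 called 0, and of 26 ribosomal protein genes 1 had such a p and DESeq2 called 0.

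**Figure D5:**
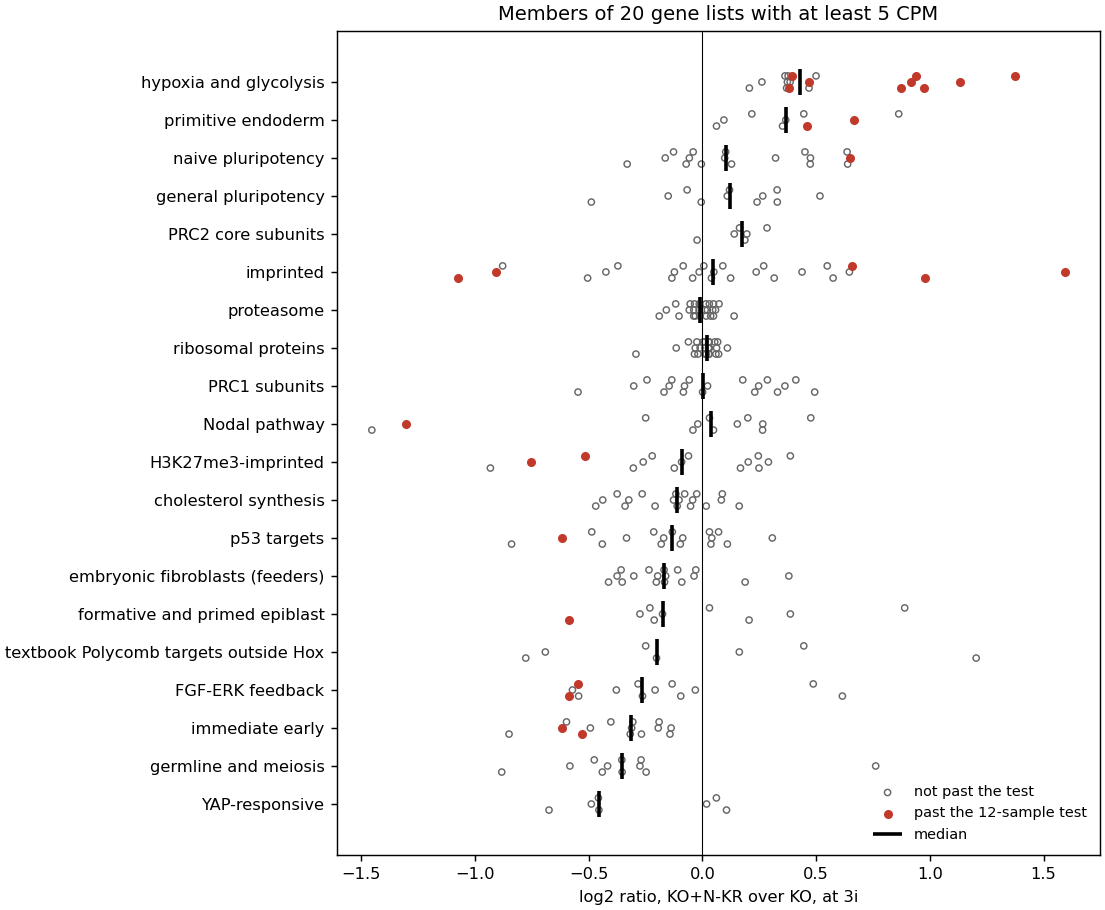
Log2 ratio of KO+N-KR over KO at 3i for the members of 20 gene lists with at least 5 CPM (1 list a line), with red points for genes past the 12-sample test and a bar at the median. The hypoxia and glycolysis and primitive endoderm members all lie above 0 and the immediate early members all below it, while proteasome and ribosomal protein members lie close to 0.

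Whether the differences seen at 3i recur was checked in embryoid bodies, which share no library with the 3i comparison. Of the 69 genes lower by size at 3i, 26 (37.7%) were also called lower at day 1 and 27 (39.1%) at day 2, against 0.901% and 2.58% of all genes tested there. Of those, 19 were lower on both days, and none was called higher on either. The 19 include every gene of the Xlr stretch that was called lower at 3i, except Xlr4b. Copies there can share reads, so the shares do not describe 69 independent genes. Of the 42 genes higher at 3i, 8 (19%) were called higher at day 1 and 3 (7.14%) at day 2, against 0.572% and 0.779% of all genes tested there, and 1, Eif2s3y, on both. The shares are of all genes called at 3i: of the 42, 23 reached 5 CPM at day 1 and 29 at day 2, and of the 69, 59 and 61 did. Bhlhe40 was called lower at day 1 and Esx1, a placental homeobox gene, at day 2. The median log2 ratio of the 42 was 1.17 at 3i, 0.55 at day 1 and 0.21 at day 2, and that of the 69 was -1.26, -0.77 and -0.84. The same 2 lines stand behind all 3 states, so recurrence shows a difference between the lines and not between separate derivations of a genotype.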

How the data were processed

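RNA-seq libraries of mouse embryonic stem cells and embryoid bodies were analysed from the authors' deposited table of read counts per gene symbol (23284 symbols, 30 columns). Of these columns 24 matched a library by its title and 6 were not used. Poly(A)-selected RNA was sequenced after NEBNext library preparation, per the labels' protocols. STAR 2.5.2b, DESeq2 and the mm9 build are named, per the submitters' processing notes. No source used here names the counting tool, its strand setting or the annotation. Genes that share reads with a copy or an overlapping gene are therefore uncertain.

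The 2 libraries of each group were summed, since they differed by little more than binomial variance and nothing says that they were separate cultures. Normalization used the TMM method of edgeR 4.0.16 (with limma 3.58.1, in R 4.3.3), and levels are CPM on that scale. A call by size needed 2-fold (prior count 2) and 5 CPM in the higher sample. P-values came from edgeR quasi-likelihood fits on the summed counts of 12 samples or the counts of 24 libraries, with Benjamini-Hochberg adjustment over all genes tested and a threshold of 0.05, and DESeq2 1.42.0 was an alternative. The 12-sample fit had terms for genotype and state and separate terms for the KO+N-KR and KO samples at 3i. These p-values measure the spread between samples of single lines, and the depth of 7553683 to 14426034 counts per library limits low genes. Other alternatives were library totals alone, other filters and prior counts, a replicate block, and leaving out libraries or an embryoid body day.

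The labels give both groups the same replicate numbers. The deposited names of all first libraries share a prefix, and those of all second libraries share a different prefix. What the prefixes mark was not examined. Deviations of same-numbered libraries had a correlation of 0.02 between KO+N-KR and KO at 3i. The libraries of a group differ by little more than binomial variance, so this correlation cannot show whether the numbers pair the samples.

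Genes named are Eed and Skp1a, the 15 with the largest ratio in each direction among those called in both library pairs, up to 10 in each direction by p in the 12-sample test, and of each gene list the members called by size or else the 3 with the largest ratio. The comparison and the lists were chosen with earlier results of these data known. Genes named as neighbours, markers or examples outside that rule were chosen after their values were seen. Promoter windows of 300 bases were taken from RefSeq (GRCm38.p6) by gene symbol, and no coordinate of the authors' build was used. The coordinates are those of GRCm38.p6.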

Additional observations from a re-analysis of the deposited data

Results flagged for a closer look

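For 7 of the 126 genes that the naming rule gives, the log2 difference between KO+N-KR and KO at 3i differed from that in embryoid bodies in the 12-sample edgeR test. The difference of the differences was 2.21 for Bhlhe40 (adjusted p = 0.000864) and 2.18 for Chac1 (adjusted p = 0.0376), an enzyme that breaks down glutathione. It was 1.89 for Cacna1h, 1.60 for Ddit4, 1.52 for Igfbp4, 1.37 for A2m and -1.61 for Gpx2 (adjusted p = 0.0200, 0.0200, 0.0200, 0.0388 and 0.0128). The call of Chac1 was lost in DESeq2 (adjusted p = 0.152) and that of A2m under library totals alone (adjusted p = 0.0512). Chac1 had 39.6 and 38.7 CPM in KO+N-KR and 21.4 and 20.5 CPM in KO at 3i, while its log2 ratio was -1.75 at day 1 and -0.87 at day 2.

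By size, Bhlhe40 at 3i (1.13) and Esx1 at 3i (1.07) were called higher in KO+N-KR and lower in an embryoid body sample. Esx1 had a log2 ratio of -2.12 at day 2, and its difference between 3i and embryoid bodies did not pass the test (adjusted p = 0.144). The embryoid body samples share no library with the 3i samples, and each sample was a single one of its genotype and state.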

How the results depend on the processing

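Among the 126 named genes, no log2 ratio of a gene called by size reversed under any setting run. Nor did the difference of any gene past the 12-sample test. Changes of sign in the other named genes were not counted. The 111 genes called by size (42 higher, 69 lower) became 65 with 36 lower at 10 CPM, 314 (134 higher, 180 lower) at 1 CPM and 562 (247 higher, 315 lower) at 1.5-fold. With either library of each group left out they were 125 to 135, with 55 to 56 higher and 69 to 80 lower. The 325 genes past the 12-sample test were 603 with no filter, 67 without embryoid body day 1, 853 without day 2 and 246 to 274 with either library left out. The cause was not tested, except that fewer samples entered the fits without a day and left fewer residual degrees of freedom than in the full fit. A call lost or gained without a day therefore does not show what that day contributed. The 65 genes that differed between 3i and embryoid bodies were 122 in DESeq2 and 68 to 80 with either library left out. The 5013 genes past the 24-library test were 2627 in DESeq2, 364 with a 2-fold limit added, and 3512 to 4152 with 1 library left out. With the replicate block they were 5077, and it had no place in the tests on summed libraries. Of the 126 named genes 45 passed the 12-sample test, 30 of them under every setting and 38 under every setting that kept both embryoid body days. Some named genes that did not pass in the main fit, such as Lefty1 and Phc1, passed under other settings. A setting that gave a gene no adjusted p, as DESeq2 for Xlr4b, was left out for that gene. Genes under 5 CPM, among them most Hox genes and Polycomb targets, are too shallow at this depth for a call by size.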
